A study of Homo sapiens with 9 samples.

Results

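The neurotrophin receptors NGFR, NTRK2, NTRK3 and SORT1 and the ligands BDNF and NTF3 were followed across 3 siRNA groups of A673, an established Ewing sarcoma cell line. They were taken by symbol from a table of read counts and make up 6 of its 23368 rows. The topic was picked because NGFR was known to be lower with siLRWD1-5 than with scrambled siRNA, so all members are described in that comparison without a test. The groups were siLRWD1-5 and siLRWD1-6, both directed against LRWD1, a partner of the origin recognition complex, and a scrambled siRNA. Each group had 3 libraries, numbered 1 to 3, from cells reverse transfected with 13 nM siRNA and harvested after 48 h in 3 independent experiments. All groups are the same line, grown in medium with serum approved for Tet systems, Zeocin and blasticidin, and the labels do not say what this selection maintained. The labels call these numbers series 1 to 3 in every group. They do not say whether a series is the same experiment in each group.

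Neurotrophins are secreted growth factors best known for keeping neurons alive during development. Each is made as a precursor that proteases cut to the mature form, and mature forms act through Trk receptor tyrosine kinases, among them NTRK2 (TrkB) for BDNF and NTF4, and NTRK3 (TrkC) for NTF3. NGFR (p75NTR, also CD271) is a death-domain receptor of the tumour necrosis factor receptor superfamily that binds all of them, and that pairs with the sorting receptor sortilin (SORT1) to bind the uncut precursors. It is also a surface marker of neural crest and mesenchymal stromal cells, both discussed as origins of Ewing sarcoma.

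Promoter sequences are shown to set members with reads beside members without any. Entries were found for 5 of the 6 members, all but NGFR. Each line gives the 250 bases before a start site listed by RefSeq (GRCh38.p14), 5′ to 3′ on the gene's strand. Capitals mark GGAA, the core bound by ETS factors such as FLI1, and TGACG, the half-site bound by CREB1, on either strand and counted with overlaps. SORT1 and BDNF had reads in every library, and NTRK3 and NTF3 in none. For BDNF, which has 5 listed starts, the only start whose window held TGACG is shown, a choice made after the scan.
SORT1, chr1:109397919-109398168, minus strand: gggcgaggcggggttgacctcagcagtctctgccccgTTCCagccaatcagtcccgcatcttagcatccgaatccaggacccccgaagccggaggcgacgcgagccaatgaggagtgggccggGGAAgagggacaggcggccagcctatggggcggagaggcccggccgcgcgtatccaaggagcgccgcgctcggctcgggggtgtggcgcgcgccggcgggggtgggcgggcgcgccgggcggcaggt
BDNF, chr11:27701622-27701871, minus strand: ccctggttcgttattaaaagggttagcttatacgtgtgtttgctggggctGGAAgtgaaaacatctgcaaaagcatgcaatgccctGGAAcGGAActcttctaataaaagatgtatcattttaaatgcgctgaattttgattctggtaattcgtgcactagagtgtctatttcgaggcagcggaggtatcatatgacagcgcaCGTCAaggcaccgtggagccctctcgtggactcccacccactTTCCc
NTRK3, chr15:88256740-88256989, minus strand: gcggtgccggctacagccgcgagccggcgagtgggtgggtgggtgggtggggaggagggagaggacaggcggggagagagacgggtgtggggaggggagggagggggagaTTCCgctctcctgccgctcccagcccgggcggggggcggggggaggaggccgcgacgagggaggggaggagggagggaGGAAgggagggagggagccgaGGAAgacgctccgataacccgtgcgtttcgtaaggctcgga
NTF3, chr12:5431858-5432107, plus strand: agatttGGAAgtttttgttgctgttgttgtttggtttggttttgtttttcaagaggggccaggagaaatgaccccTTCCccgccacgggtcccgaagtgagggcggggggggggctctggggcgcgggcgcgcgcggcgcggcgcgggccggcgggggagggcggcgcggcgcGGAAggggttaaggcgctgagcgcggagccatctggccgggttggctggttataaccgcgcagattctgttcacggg

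The SORT1 window held 2 GGAA matches, the BDNF window 4, the NTRK3 window 3 and the NTF3 window 3. At least 2 matches were in 76.8% of the first listed windows of 27305 genes, at least 3 in 55.3% and at least 4 in 34.5%. The first listed BDNF window, not shown, held 1 GGAA and 0 TGACG matches, and 21.7% of all first listed windows held TGACG at least once. The CG dinucleotide occurred 32 times in the SORT1 window, 11 times in the BDNF window, 23 times in the NTRK3 window and 28 times in the NTF3 window, against a median of 11 over all genes. Windows of 1 gene differed as well. The second listed start of SORT1 had 2 CG and 5 GGAA, and that of NTF3 had 9 CG and 1 GGAA. The 4 listed starts of NTRK2 had 3 to 31 CG and 0 to 5 GGAA. Those of BDNF had 3 to 15 CG, with 15 in the first listed window, and 1 to 7 GGAA. TGACG occurred 2 times in the third NTRK2 window and in no other window of NTRK2, SORT1, NTRK3 or NTF3. At least 2 TGACG matches were in 4.93% of first listed windows. The site was thus not limited to members with reads in every library.

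Total counts ranged from 11971179 to 15674452 per library, and 13648 genes passed the filter on low counts. LRWD1 had 10.4 to 11.3 CPM (reads scaled to the library total with TMM factors) with siLRWD1-5 and 6.55 to 8.55 CPM with siLRWD1-6, against 49.1 to 54.6 CPM with scrambled siRNA. Scrambled replicate 2 stood apart from the other scrambled libraries, with a chi-square per gene of 28.4 and 24.2, against 2.98 to 5.45 for all other pairs within a group. Values without it are given where it moved a result. The 12 Ewing sarcoma markers, of which 11 passed the filter, summed to 2125 to 2443 CPM with siLRWD1-5. With siLRWD1-6 the sums were 2606 to 2837 CPM, and with scrambled siRNA 2827 to 3636 CPM. The siLRWD1-5 sums lay below all others, but CCND1 made up most of each sum, averaging 1652, 1941 and 2391 CPM in that order. Single markers did not all rank as the sums did. With siLRWD1-5, siLRWD1-6 and scrambled siRNA, FLI1 averaged 49.6, 83.0 and 71.1 CPM and PAPPA 159, 169 and 110 CPM. BCL11B lay at 43.1, 44.4 and 44.5 CPM. CD99 failed the filter, with 50 reads in siLRWD1-5 replicate 2 and none elsewhere. The sources used here do not give the annotation or counting mode, so this row is not read as the CD99 level. The Schwann cell and glial markers, a cell type in which NGFR is abundant, summed to 5.18 to 8.13 CPM with siLRWD1-5, 7.62 to 8.43 CPM with siLRWD1-6 and 7.46 to 10.6 CPM with scrambled siRNA, and 7 of these 8 failed the filter, with PMP2 and CDH19 at 0. The 8 neuronal markers, of which 7 passed the filter, summed to 655 to 754 CPM with siLRWD1-5, 508 to 570 CPM with siLRWD1-6 and 630 to 1156 CPM with scrambled siRNA, and the part of these marker lists in the results below was not tested.

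NGFR was 5.79-fold lower with siLRWD1-5 than with scrambled siRNA, while the members SORT1 and BDNF lay near or above their scrambled levels. NGFR had 2.27, 2.15 and 3.41 CPM with siLRWD1-5, 13.9, 10.4 and 14.3 CPM with siLRWD1-6, against 12.3, 16.9 and 15.97 CPM with scrambled siRNA. These values rest on 36, 29 and 42 reads with siLRWD1-5, 199, 142 and 169 with siLRWD1-6, and 195, 208 and 207 with scrambled siRNA. Every siLRWD1-5 library lay below every other library, whereas the siLRWD1-6 and scrambled libraries overlapped. For 24.6% of all tested genes every siLRWD1-5 library lay below every scrambled one. The mean was 2.61 ± 0.696 CPM with siLRWD1-5 and 15.05 ± 2.41 CPM with scrambled siRNA (SD, n = 3 each), which left 17.3% of the level (log2 fold change -2.53, SE 0.21, 95% interval -2.99 to -2.08). In that comparison 9 of the 13648 genes had a lower log2 fold change, and 3.59% of genes were at least 2-fold lower. Because the fall of NGFR there chose the topic, its rank and interval are descriptions and no support. Counts from bulk RNA cannot tell fewer cells of a type from less RNA per cell.

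With siLRWD1-6 the NGFR level was 12.8 ± 2.15 CPM, against 15.05 ± 2.41 CPM with scrambled siRNA (SD, n = 3 each). The log2 fold change of -0.22 (SE 0.17, 95% interval -0.61 to 0.16) did not pass the threshold of an adjusted p of 0.05 (quasi-likelihood test of edgeR, Benjamini-Hochberg over all tested genes, adjusted p = 0.43). Without the libraries numbered 2 in all groups the value turned to 0.01 (adjusted p = 0.97). Set directly against siLRWD1-5, NGFR was 4.96-fold higher with siLRWD1-6 (log2 fold change 2.31, SE 0.21, 95% interval 1.85 to 2.77), given without a test because the siLRWD1-5 level chose the gene. Both siRNAs lowered LRWD1, and the order of NGFR levels was scrambled, siLRWD1-6 and siLRWD1-5, of which the first pair did not differ beyond its spread. The per-library plot of NGFR, SORT1 and BDNF shows this order.

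**Figure D1:**
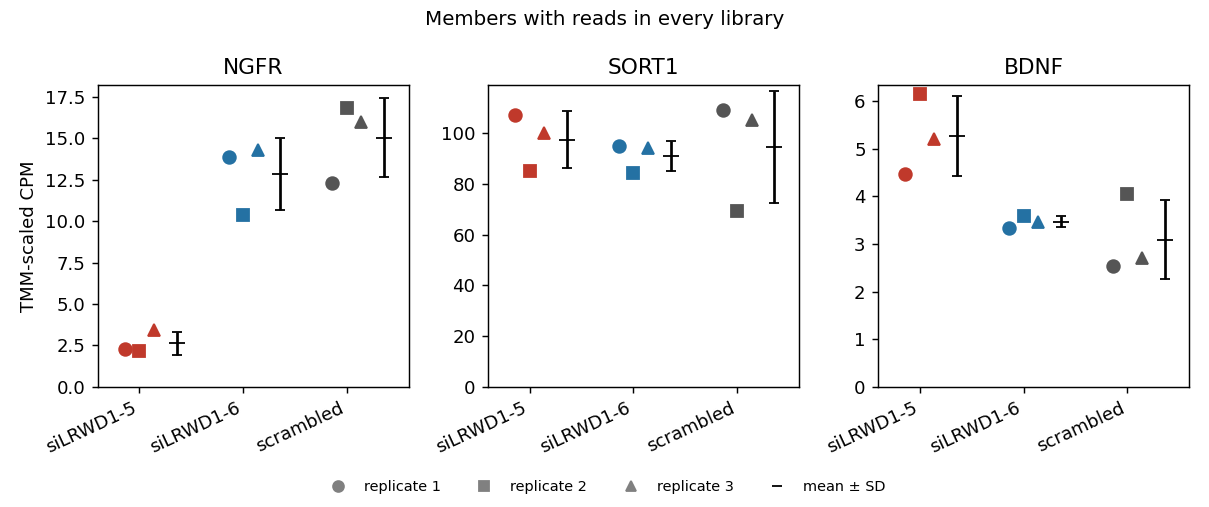
TMM-scaled CPM (y axis, linear, from 0) of NGFR, SORT1 and BDNF in the 9 libraries, by siRNA group (x axis); marker shapes give the replicate number and black bars the mean ± SD (n = 3). The siLRWD1-5 libraries of NGFR lie between 2.15 and 3.41 CPM, below all others, and scrambled replicate 2 of SORT1 lies at 69.1 CPM, below its group.

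SORT1, which sorts proteins between the Golgi and endosomes and is the co-receptor for uncut neurotrophins, was the member with the highest level. It had 107, 85.0 and 100.3 CPM with siLRWD1-5, 95.04, 84.4 and 94.1 CPM with siLRWD1-6, against 109, 69.1 and 105 CPM with scrambled siRNA. The ranges of all 3 groups overlapped, and replicate 2 was the lowest library of each. The log2 fold change was 0.04 (SE 0.16, 95% interval -0.32 to 0.40) with siLRWD1-5 against scrambled, -0.05 (SE 0.16, -0.42 to 0.31, adjusted p = 0.86) with siLRWD1-6 against scrambled, and -0.10 (SE 0.16, -0.46 to 0.26, adjusted p = 0.66) with siLRWD1-6 against siLRWD1-5. Without scrambled replicate 2 the values against scrambled became -0.14 with siLRWD1-5 and -0.22 with siLRWD1-6, and the siLRWD1-6 value then passed the threshold (edgeR, adjusted p = 0.047). Without scrambled replicate 1 or 3 the siLRWD1-6 value was instead 0.06 or 0.03, so its sign depended on the scrambled library left out.

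BDNF, the ligand of NTRK2, was highest with siLRWD1-5. It had 4.47, 6.15 and 5.20 CPM with siLRWD1-5, 3.34, 3.58 and 3.47 CPM with siLRWD1-6, against 2.53, 4.05 and 2.70 CPM with scrambled siRNA. The siLRWD1-5 libraries lay above all others, and the siLRWD1-6 libraries lay within the range of the scrambled ones. For 23.2% of all tested genes every siLRWD1-5 library lay above every scrambled one. Its level was thus 1.71-fold higher with siLRWD1-5 than with scrambled siRNA (log2 fold change 0.78, SE 0.21, 95% interval 0.32 to 1.23, described without a test), or 1.01 on the log2 scale without scrambled replicate 2. With siLRWD1-6 the value was 0.17 (SE 0.22, 95% interval -0.30 to 0.65, adjusted p = 0.64), or 0.42 (adjusted p = 0.17) without scrambled replicate 2. Between the siRNAs BDNF was 1.52-fold lower with siLRWD1-6 than with siLRWD1-5 and the ranges did not overlap, at 3.47 ± 0.118 and 5.27 ± 0.840 CPM (SD, n = 3 each; -0.60 on the log2 scale, SE 0.21, edgeR adjusted p = 0.034). This test shares the siLRWD1-5 libraries with the comparison that chose the topic. The call was lost without siLRWD1-5 replicate 2 (-0.47) or 3 (-0.61), and without siLRWD1-6 replicate 1 (-0.57), 2 (-0.62) or 3 (-0.59), and without the libraries numbered 2 in all groups (-0.50).

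BDNF overlaps the antisense gene BDNF-AS1 in RefSeq, and the library kit does not mark strand, so reads in shared sequence cannot be told apart. BDNF-AS1 had 0.693, 0.889 and 0.406 CPM with siLRWD1-5, 1.53, 1.32 and 2.12 CPM with siLRWD1-6, against 0.632, 1.22 and 0.926 CPM with scrambled siRNA. These values rest on few reads, 11, 12 and 5 with siLRWD1-5, 22, 18 and 25 with siLRWD1-6, and 10, 15 and 12 with scrambled siRNA. BDNF-AS1 was highest in the siLRWD1-6 libraries, where BDNF was not. Its level was 2.43-fold higher with siLRWD1-6 than with siLRWD1-5 (edgeR, adjusted p = 0.012), a call lost without siLRWD1-5 replicate 3 (1.06) or siLRWD1-6 replicate 3 (1.09), and its log2 fold change against scrambled was 0.85 (SE 0.34, adjusted p = 0.11; 1.10 and adjusted p = 0.035 without scrambled replicate 2) with siLRWD1-6 and -0.43 (SE 0.39, adjusted p = 0.41) with siLRWD1-5. Against scrambled, BDNF-AS1 gained a call with siLRWD1-6 in 2 of 18 alternatives. NGFR and NTRK3 also overlap antisense genes in RefSeq, which were not analysed here.

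The Trk receptors NTRK2 and NTRK3 and the NTRK3 ligand NTF3 are low-count rows and failed the filter. NTRK2 had 1 read in siLRWD1-6 replicate 1 (0.0697 CPM) and 0 in the other 8 libraries. NTRK3 and NTF3 had 0 reads in all 9. A count of 0 allows up to 3 reads, which is 0.189 to 0.254 CPM per library (a limit for counting error only). A count of 0 in 1 library therefore does not exclude a level below this. No fold change is given for them.

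Among the 3 members tested, 2 were past the table-wide threshold with siLRWD1-5 against scrambled, where 38.8% of all tested genes were. The topic was chosen on this comparison, so this count is no test of the members and nothing is read from it, and it was 1 without siLRWD1-5 replicate 2. With siLRWD1-6 against scrambled edgeR called 0 of 3, against 16.6% of all genes. At an unadjusted p under 0.05 the count was also 0, and DESeq2 and limma-voom called 0. No member's siLRWD1-6 range was clear of its scrambled range, whereas 33.7% of genes had ranges that did not overlap. Without scrambled replicate 2, 1 member was called, SORT1. Between siLRWD1-6 and siLRWD1-5, 1 of the 2 members other than NGFR was called, against 43.4% of all genes. Between these groups 61% of all tested genes had ranges that did not overlap, 30.7% with siLRWD1-6 higher, as for NGFR, and 30.3% with siLRWD1-6 lower, as for BDNF. The plot of fold changes sets these values beside those of the sortilin relatives.

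**Figure D2:**
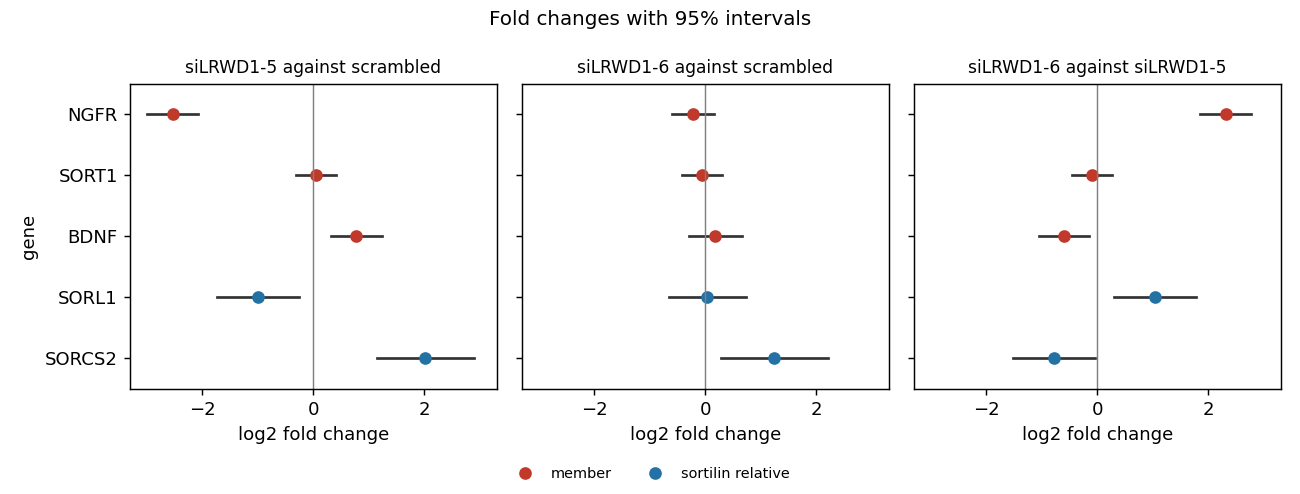
Log2 fold change (x axis) with its 95% interval of the 3 tested members (red) and of the sortilin relatives SORL1 and SORCS2 (blue) in each comparison; positive values are higher in the group named first. NGFR lies at -2.53 with siLRWD1-5 and at -0.22 with siLRWD1-6 against scrambled, and SORL1 lies at -1.01 with siLRWD1-5 and at 0.03 with siLRWD1-6.

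Per kilobase of exon (GENCODE 29 lengths), SORT1 was the most abundant member in each group, at 13.2 ± 1.54 CPM per kilobase with siLRWD1-5, 12.4 ± 0.803 with siLRWD1-6 and 12.8 ± 3.00 with scrambled siRNA (SD, n = 3 each). NGFR followed at 3.50 ± 0.586 CPM per kilobase with siLRWD1-6 and 4.09 ± 0.654 with scrambled siRNA, above BDNF at 0.448 ± 0.0152 with siLRWD1-6 and 0.400 ± 0.108 with scrambled siRNA. With siLRWD1-5 NGFR and BDNF overlapped, where NGFR had 0.584 to 0.928 and BDNF 0.578 to 0.794 CPM per kilobase.

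Patterns most like those of the members were sought among 10358 genes of at least 5 CPM by the root mean square difference of centred log2 CPM over the 9 libraries. For NGFR, whose own root mean square distance from its mean was 1.16, the nearest were EI24 (0.25), RCN2 (0.30) and SLC25A24 (0.30). EI24 averaged 34.6 CPM with siLRWD1-5, 186 CPM with siLRWD1-6 and 184 CPM with scrambled siRNA. For BDNF, with a distance of 0.39 from its mean, they were CCDC50 (0.10), TNIP1 (0.10) and FAM43A (0.11). TNIP1 averaged 178 CPM with siLRWD1-5, 111 CPM with siLRWD1-6 and 105 CPM with scrambled siRNA. For SORT1, with 0.20, they were KIAA1467 (0.05), CENPM (0.06) and CEP55 (0.06), and CEP55 averaged 104 CPM with siLRWD1-5, 102 CPM with siLRWD1-6 and 102 CPM with scrambled siRNA.

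NTF4, the second ligand of NTRK2, failed the filter with at most 5 reads in a library. Of the sortilin relatives, SORL1, a sorting receptor of the same family, had 6.55, 4.67 and 6.66 CPM with siLRWD1-5, 12.3, 10.2 and 14.5 CPM with siLRWD1-6, against 14.5, 5.92 and 15.3 CPM with scrambled siRNA. Scrambled replicate 2 was low as for SORT1 and lay within the siLRWD1-5 range. SORL1 fell 2.01-fold with siLRWD1-5 (-1.01 on the log2 scale, SE 0.33, edgeR adjusted p = 0.036), and without scrambled replicate 2 the value was -1.32 (adjusted p = 7.2e-07). Among libraries of the same number it was lower with siLRWD1-5 in 3 of 3, and with the replicate number as a block the value was -0.96 (SE 0.19, adjusted p = 0.0018). The call was lost without scrambled replicate 1 (-0.84) or 3 (-0.80), without siLRWD1-5 replicate 1 (-1.09), 2 (-0.85) or 3 (-1.09) and without siLRWD1-6 replicate 1 (-1.01) or 3 (-1.004), and under 4 other settings, limma-voom among them. With siLRWD1-6 the value against scrambled was 0.03 (SE 0.31, adjusted p = 0.96), or -0.27 without scrambled replicate 2. Against siLRWD1-5 SORL1 was 2.06-fold higher with siLRWD1-6 (adjusted p = 0.029), a call lost without siLRWD1-5 replicate 1 (1.12), 2 (0.90) or 3 (1.12) and without siLRWD1-6 replicate 1 (1.04) or 3 (0.92), and with no filter on low counts (1.05).

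SORCS2, another relative, had 24, 16 and 11 reads with siLRWD1-5, 9, 8 and 11 with siLRWD1-6, and 3, 5 and 4 with scrambled siRNA. It averaged 1.20 ± 0.310 CPM with siLRWD1-5, 0.714 ± 0.189 CPM with siLRWD1-6 and 0.301 ± 0.108 CPM with scrambled siRNA (SD, n = 3 each). It is a low-count row that passed the filter on its siLRWD1-5 level, so its log2 fold changes of 2.02 (SE 0.40) and 1.24 (SE 0.44) against scrambled are given as values. SORCS1 had at most 2 reads in a library and SORCS3 had none.

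**Figure D3:**
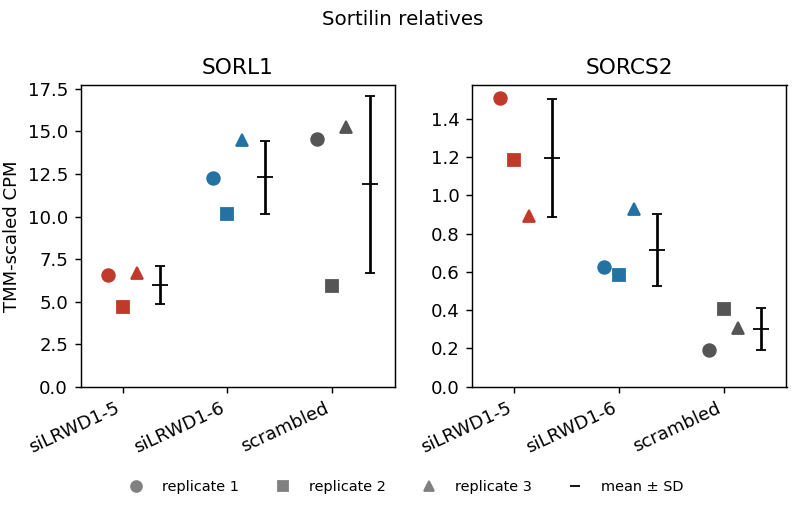
TMM-scaled CPM (y axis, linear, from 0) of SORL1 and SORCS2 in the 9 libraries, by siRNA group (x axis); marker shapes give the replicate number and black bars the mean ± SD (n = 3). Scrambled replicate 2 of SORL1 lies at 5.92 CPM, below its group.

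Proteases that cut proneurotrophins or their receptors were read against the share of all tested genes called. These were 18.5% higher and 20.3% lower with siLRWD1-5, 8.81% and 7.78% with siLRWD1-6, and 22.4% and 20.9% for siLRWD1-6 against siLRWD1-5. Of 18 tested, 5 rose and 2 fell with siLRWD1-5, and 1 rose and 2 fell with siLRWD1-6. The median log2 fold changes were 0.17 and -0.05, against -0.01 and -0.02 over all tested genes. ADAM10, a receptor-shedding protease, fell 1.93-fold with siLRWD1-5, to 76.9 ± 1.19 CPM, against 148 ± 8.13 CPM with scrambled siRNA (SD, n = 3 each; edgeR, adjusted p = 7.1e-07). ADAM17, which sheds the NGFR ectodomain, rose 1.27-fold with siLRWD1-5 (adjusted p = 0.00051) and 1.39-fold with siLRWD1-6 (adjusted p = 0.00022). APH1A, a subunit of the gamma-secretase that cuts the remaining stub, fell 2.03-fold with siLRWD1-6 (adjusted p = 2.9e-06), and FURIN, a proneurotrophin convertase, fell 1.41-fold (adjusted p = 0.02), or 1.24-fold without scrambled replicate 2, a call lost without siLRWD1-6 replicate 1 (-0.46) or 2 (-0.49). In all, the FURIN call was lost in 3 of 18 alternatives. Between siLRWD1-6 and siLRWD1-5, 2 proteases were higher and 6 lower. The 5 that rose with siLRWD1-5 became 11 without scrambled replicate 2 and 3 without scrambled replicate 3 or siLRWD1-5 replicate 1. With siLRWD1-6 the 1 that rose became 3 without scrambled replicate 2, and the 2 that fell became 1 without siLRWD1-6 replicate 1 or 2.

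Binding partners of NGFR and its death and NF-kB adaptors numbered 29 tested. With siLRWD1-5, 6 rose and 8 fell (median 0.01), with siLRWD1-6, 6 rose and 4 fell (median -0.00), and between siLRWD1-6 and siLRWD1-5, 9 were higher and 3 lower. In either direction 48.3%, 34.5% and 41.4% were called in these comparisons, against 38.8%, 16.6% and 43.4% of all tested genes. PRDM4, a zinc finger protein that binds NGFR, fell 2.16-fold with siLRWD1-5, to 41.6 ± 2.46 CPM, against 89.7 ± 8.64 CPM with scrambled siRNA (SD, n = 3 each; edgeR, adjusted p = 1.8e-06). BEX1, which interacts with NGFR, fell 1.95-fold (adjusted p = 0.00012). MAGEH1, of a protein family with NGFR-binding members, rose 2.36-fold with siLRWD1-5 (adjusted p = 8.9e-05) and 2.15-fold with siLRWD1-6 (adjusted p = 7e-04). LINGO1, a co-receptor of NGFR, fell 1.36-fold with siLRWD1-6 (adjusted p = 0.0016). It averaged 80.0 CPM with siLRWD1-5, 82.8 CPM with siLRWD1-6 and 113 CPM with scrambled siRNA, so its low level was not particular to siLRWD1-6. The 4 that fell with siLRWD1-6 became 1, 2 and 2 without siLRWD1-6 replicate 1, 2 and 3, and the 3 lower than with siLRWD1-5 became 1 without siLRWD1-6 replicate 1 or 3 and 5 without scrambled replicate 2.

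Adaptors and transducers of the Trk receptors numbered 55 tested. With siLRWD1-5, 9 rose and 16 fell (median -0.03), with siLRWD1-6, 7 rose and 7 fell (median -0.03), and between siLRWD1-6 and siLRWD1-5, 16 were higher and 13 lower. In either direction 45.5%, 25.5% and 52.7% were called in these comparisons, against 38.8%, 16.6% and 43.4% of all tested genes. CREB1, a transcription factor phosphorylated downstream of Trk receptors, fell 1.69-fold with siLRWD1-5, to 47.1 ± 0.149 CPM, against 79.3 ± 7.44 CPM with scrambled siRNA (SD, n = 3 each; edgeR, adjusted p = 1.8e-05). It was 1.96-fold higher with siLRWD1-6 than with siLRWD1-5 (adjusted p = 2.1e-06). MAP2K5, the kinase that activates ERK5, fell 1.60-fold with siLRWD1-5 (adjusted p = 4.6e-05) and 1.53-fold with siLRWD1-6 (adjusted p = 0.00035). KIDINS220, a scaffold that binds Trk receptors and NGFR, fell 1.35-fold with siLRWD1-6 (adjusted p = 0.00082), and the adaptor SHC1 fell 1.91-fold (adjusted p = 0.0043), or 1.61-fold (adjusted p = 5e-08) without scrambled replicate 2. SHC1 averaged 424 CPM with siLRWD1-5, 314 CPM with siLRWD1-6 and 601 CPM with scrambled siRNA. In that order KIDINS220 averaged 131, 108 and 146 CPM. The 9 that rose with siLRWD1-5 became 5 without siLRWD1-5 replicate 3. With siLRWD1-6 the 7 that rose became 3 without scrambled replicate 1 and 1, 2 and 4 without siLRWD1-6 replicate 1, 2 and 3, and the 7 that fell became 4 without scrambled replicate 1 or siLRWD1-6 replicate 1.

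Genes known to respond to neurotrophins in neurons or neuron-like cells numbered 29 tested. With siLRWD1-5, 3 rose and 7 fell (median -0.05), with siLRWD1-6, 7 rose and 3 fell (median 0.17), and between siLRWD1-6 and siLRWD1-5, 10 were higher and 5 lower. In either direction 34.5%, 34.5% and 51.7% were called in these comparisons, against 38.8%, 16.6% and 43.4% of all tested genes. HOMER1, a synaptic scaffold, fell 2.40-fold with siLRWD1-5 (edgeR, adjusted p = 5.6e-06), and PLAUR, the urokinase receptor, fell 2.65-fold (adjusted p = 0.00018), or 2.24-fold without scrambled replicate 2. The immediate early gene FOS rose 2.16-fold with siLRWD1-6, to 7.18 ± 2.55 CPM, against 3.34 ± 0.171 CPM with scrambled siRNA (SD, n = 3 each; adjusted p = 0.012; lost without siLRWD1-6 replicate 1, 0.89, or 2, 1.03), and NR4A1, an immediate early nuclear receptor, rose 1.60-fold (adjusted p = 0.0038). GAP43, a growth cone protein, fell 2.42-fold with siLRWD1-6 (adjusted p = 0.00077). It averaged 6.57 CPM with siLRWD1-5, 5.41 CPM with siLRWD1-6 and 13.1 CPM with scrambled siRNA, so its low level was not particular to siLRWD1-6. EGR1, an immediate early transcription factor, was 2.66-fold higher with siLRWD1-6 than with siLRWD1-5 (adjusted p = 3.2e-05). The 3 that rose with siLRWD1-5 became 9 without scrambled replicate 2 and 6 with the replicate number as a block. With siLRWD1-6 the 7 that rose became 11 without scrambled replicate 2, 3 without scrambled replicate 1 or siLRWD1-6 replicate 1, 4 without scrambled replicate 3 and 2 without siLRWD1-6 replicate 2, and the 3 that fell became 1 without any of its libraries. The 5 lower than with siLRWD1-5 became 3 without siLRWD1-5 replicate 1, 2 without siLRWD1-5 replicate 2 or 3 or siLRWD1-6 replicate 1, and 1 without siLRWD1-6 replicate 2 or 3.

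**Figure D4:**
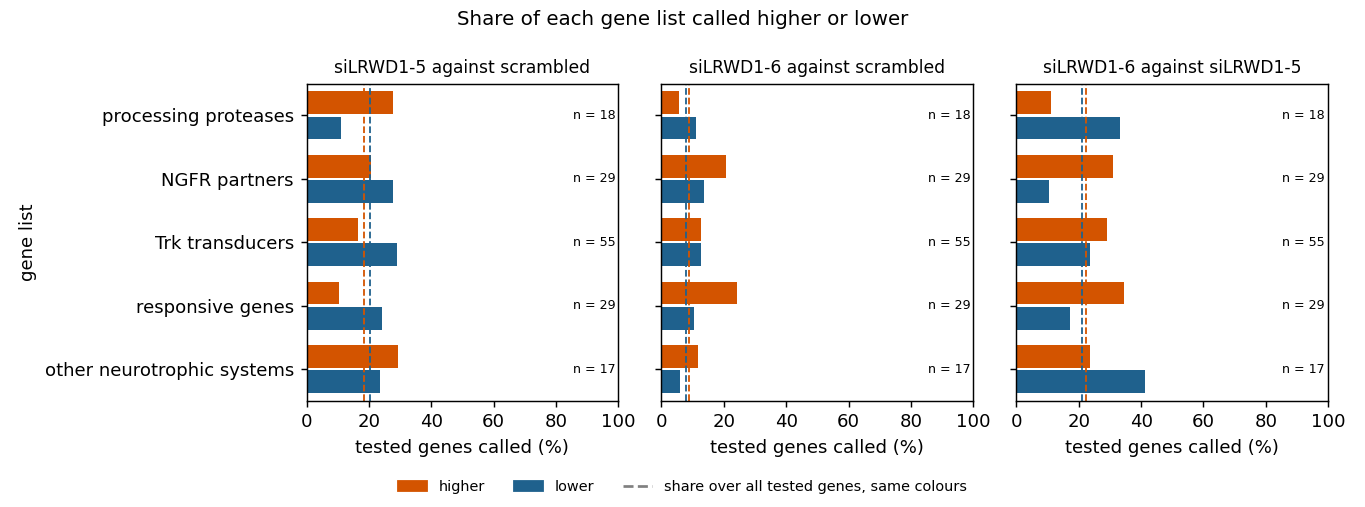
Percent of the tested genes of each list called higher (orange) or lower (blue) at an adjusted p under 0.05 (x axis, linear from 0) in the 3 comparisons, with the number tested; dashed lines give the share over all 13648 tested genes. With siLRWD1-6 against scrambled, 7 of 29 responsive genes were called higher, where 8.81% of all genes were.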

How the data were processed

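RNA was sequenced from 9 A673 libraries. The authors deposited raw read counts per gene symbol; the tools listed in the submitters' processing notes are HTSeq 0.5.4p3, TopHat2 2.0.10 and bcl2fastq 1.8.4, and the build is hg19. For the annotation, counting mode and strand setting, nothing is given in the sources used here. The kit named in the labels does not mark strand.

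Counts were filtered with filterByExpr (13648 of 23368 genes kept), normalised with TMM factors and fitted in edgeR 4.0.16 (R 4.3.3) by its robust quasi-likelihood method. The model held the siRNA group alone, all 9 libraries entered it, and p-values were adjusted over all tested genes by Benjamini-Hochberg (threshold 0.05). Fold changes are on the log2 scale. Standard errors come from the F statistic. Alternatives used DESeq2 1.42.0, limma-voom (limma 3.58.1), other scaling, filters and fits, the replicate number as a block, and left-out libraries. Python 3.11.15 and pandas 2.3.3 were used.

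Deviations from the group means correlated at 0.24, 0.36 and 0.11 between siLRWD1-5 and scrambled libraries numbered 1, 2 and 3. Scrambled replicate 3 reached 0.13 with siLRWD1-5 replicate 1, so the correlations do not set number 3 apart as a pair. The labels do not state pairs, and the main model holds none. Its standard errors and adjusted p-values take no account of any pairing.

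Members and lists were chosen with earlier results of these data known. Named genes were the members, LRWD1, up to 4 called genes of smallest p per list and comparison, and the 3 nearest patterns per member. Some genes these rules pick are not reported here. SORL1, SORCS1, SORCS2, SORCS3 and NTF4, BDNF-AS1, and CD99, PMP2 and CDH19 were named outside this rule. Exon lengths and promoters are from GRCh38 annotations, not from the build of the counts.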

Additional observations from a re-analysis of the deposited data

How the results depend on the processing

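The 97 values and counts were recomputed under 18 alternatives, except SORCS2, which some of them could not give (15 to 17 alternatives). Fold changes of the named genes kept their direction and side of the threshold, or moved less than 1 SD where not tested, in 996 of 1039 recomputations; 34 lost a call, 3 gained one and 6 tested values turned sign. The sign of these turned for SORT1 with siLRWD1-6 against scrambled (0.064 and 0.027 without scrambled replicate 1 and 3; -0.22 to 0.064 over left-out libraries), for NGFR there (0.012 without the libraries numbered 2; -0.35 to 0.012) and for SORL1 there (-0.27 without scrambled replicate 2, -0.080 without siLRWD1-6 replicate 3, -0.15 without the libraries numbered 2; -0.27 to 0.24). SORT1 with siLRWD1-5 against scrambled, which carries no test, also turned sign, to -0.14 without scrambled replicate 2, -0.033 without siLRWD1-5 replicate 1 and -0.038 without the libraries numbered 2. The cause was not tested. NGFR ranged from -2.76 to -2.32 with siLRWD1-5 against scrambled over all alternatives. With libraries left out, genes called ranged from 4189 to 6790 for siLRWD1-5 against scrambled, 1248 to 3953 for siLRWD1-6 against scrambled and 4685 to 7551 between the siRNAs. Members called then ranged from 1 to 2, 0 to 1 and 1 to 2, and list genes called from 52 to 90, 20 to 61 and 58 to 94, against 68, 42 and 77 with all libraries. List counts by direction stayed within 1.5 times in 476 of 540 recomputations.

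Between siLRWD1-6 and scrambled, deviations of libraries numbered 1, 2 and 3 correlated at 0.28, 0.23 and 0.053. Between siLRWD1-6 and siLRWD1-5 the values were 0.17, 0.22 and 0.090. Only number 3 was under 0.1. The labels do not state pairs, so the main model holds none. Over all groups 7 of 9 same-number pairs were over 0.1, against 2 of 18 with different numbers (-0.32 to 0.13). With the replicate block, genes called numbered 5925, 2815 and 6492, members called 2, 0 and 2, and list genes called 82, 46 and 82. In that fit siLRWD1-5 raised 6 responsive genes in place of 3, and 5 NGFR partners in place of 3 were lower with siLRWD1-6 than with siLRWD1-5. The block changed no call of a named gene. Rows of few reads (NTRK2, NTRK3, NTF3, SORCS2, BDNF-AS1) are limited by depth.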

Other observations

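Genes of the other neurotrophic factor systems, the GDNF and CNTF families and related factors, numbered 17 tested of 24. With siLRWD1-5, 5 rose and 4 fell (median log2 fold change 0.03), with siLRWD1-6, 2 rose and 1 fell (median 0.07), and between siLRWD1-6 and siLRWD1-5, 4 were higher and 7 lower. Of all tested genes, 18.5% were higher and 20.3% lower with siLRWD1-5, and 8.81% and 7.78% with siLRWD1-6. Between siLRWD1-6 and siLRWD1-5 these shares were 22.4% and 20.9%. ARTN, a ligand of the GDNF family, fell 2.16-fold with siLRWD1-5, to 1.45 ± 0.117 CPM, against 3.11 ± 0.381 CPM with scrambled siRNA (SD, n = 3 each; edgeR, adjusted p = 0.0012). CNTFR, the receptor of ciliary neurotrophic factor, rose 1.92-fold with siLRWD1-5 (adjusted p = 0.0057). GDNF rose 1.40-fold with siLRWD1-6, to 46.0 ± 3.45 CPM, against 32.9 ± 2.59 CPM with scrambled siRNA (SD, n = 3 each; adjusted p = 0.0039), whereas GFRA2, a co-receptor of the family, fell 1.72-fold (adjusted p = 0.028), or 1.42-fold without scrambled replicate 2, a call lost without any siLRWD1-6 library (-0.87 to -0.73). In all, the GFRA2 call was lost in 4 of 18 alternatives. MANF, an endoplasmic reticulum protein with trophic activity, fell 1.32-fold with siLRWD1-5 (adjusted p = 0.0055) and rose 1.42-fold with siLRWD1-6 (adjusted p = 0.0037), and was 1.88-fold higher with siLRWD1-6 than with siLRWD1-5 (adjusted p = 1.8e-05). The 5 that rose with siLRWD1-5 became 1 without scrambled replicate 3 and 3 without any of its own libraries. With siLRWD1-6 the 1 that fell became 3 and 2 without scrambled replicate 2 and 3, and 0 without any of its own libraries. The 7 lower than with siLRWD1-5 became 2 to 4 when a library of either siRNA was left out.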
